A study of Saccharomyces cerevisiae with 6 samples.

Results

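The 5.8S and ITS2 positions are 390 of the 6739 nt between the 35S start site and the terminator T1 on the complete rDNA repeat. They were taken by coordinate alone, as the minus-strand stretch of chromosome XII from 464319 to 464708 (R64), and positions are counted from the 35S start site. The 5.8S rRNA (RDN58-2) lies at 464551 to 464708 and internal transcribed spacer 2 (ITS2-2) at 464319 to 464550. The 11 positions within 5 nt of the last 5.8S nucleotide (3014 to 3024) are given apart as the mature 5.8S 3′ end, which leaves 152 positions in the 5.8S body and 227 in ITS2. NET-seq of 3 WT and 3 *rpa12Δ* libraries of *S. cerevisiae* asked how loss of A12.2, the Pol I subunit needed for cleavage of backtracked RNA, changes Pol I occupancy. Both strains carried HA-tagged Rpa135, the subunit used for immunoprecipitation, and the *rpa12Δ* strain was derived from the WT strain by full deletion of *RPA12*. All cultures grew in YEPD to an A600 of 0.3.

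ITS2 separates the 5.8S and 25S rRNAs in the pre-rRNA and is absent from the ribosome. In yeast, Las1 cuts ITS2 at site C2, which leaves 7S pre-rRNA upstream. The nuclear exosome and other 3′ exonucleases shorten 7S through the intermediates 5.8S+30 and 6S to mature 5.8S, while Rat1 trims the downstream fragment to the 5′ end of 25S. The 5′ end of the short form of 5.8S is likewise set by exonuclease trimming of ITS1, the spacer between 18S and 5.8S. NET-seq reads RNA 3′ ends, so the end of a processed rRNA that stays with the immunoprecipitate is read in the same way as that of a nascent transcript.

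Files held 4344302 to 6755222 WT reads and 13588526 to 14634449 *rpa12Δ* reads per library, of which 1404091 to 2214993 and 3944710 to 4312851 ended on the complete repeat before T1. Occupancy is the number of read ends per 1000000 of these (RPM). A single read end was worth 0.451 to 0.712 RPM in WT but 0.232 to 0.254 in *rpa12Δ*. Within 5.8S and ITS2, 232669 to 320457 ends were counted per WT library and 406494 to 482328 per *rpa12Δ* library, from 8104 to 8722 and 13107 to 14223 distinct intervals. Copies made by PCR are counted here, so intervals derived from counts cover counting error only. Every one of these reads had mapping quality 0, because a second annotated copy holds the same sequence, and 49.9 to 50.0% were placed on the complete repeat. Over *RPA12* (YJR063W), WT replicates 1 to 3 had 8, 9 and 4 reads and *rpa12Δ* replicates 0, 0 and 1. The methods describe the libraries as biological triplicates. Values after ± are SDs over the 3 libraries of a strain, and library values are listed from replicate 1 to 3.

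Together the 390 positions took 14.5, 15.6 and 16.6% of the read ends of the gene in WT, but 11.2, 11.2 and 10.2% in *rpa12Δ* (widest 95% Wilson interval ± 0.0616 percentage points). The 3 stretches behaved differently. ITS2 occupancy was higher in *rpa12Δ*, the mature 5.8S 3′ end was lower, and the 5.8S body overlapped between strains.

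ITS2 summed to 6203, 6660 and 6888 RPM in the WT libraries and to 11767, 11737 and 12464 RPM in the mutant, so all mutant libraries lay above all WT libraries. This is a log2 difference of 0.87 (limma over 10 stretches of the gene, SE 0.07, adjusted p = 6.60e-06). The 5.8S body summed to 20686, 23795 and 22813 RPM in WT, against 20242, 21748 and 22509 RPM without A12.2. These ranges overlapped, with a log2 difference of -0.06 (limma, SE 0.08, adjusted p = 0.471). The mature 5.8S 3′ end took 117788, 125458 and 136006 RPM in WT, against 79826, 78527 and 66606 RPM in the mutant. No libraries of the strains overlapped there, and the log2 difference was -0.76 (limma, SE 0.09, adjusted p = 7.86e-05). With 3 libraries per strain, an exact permutation test cannot give a two-sided p below 0.1, and it gave 0.1 for ITS2 and for the mature end.

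**Figure D1:**
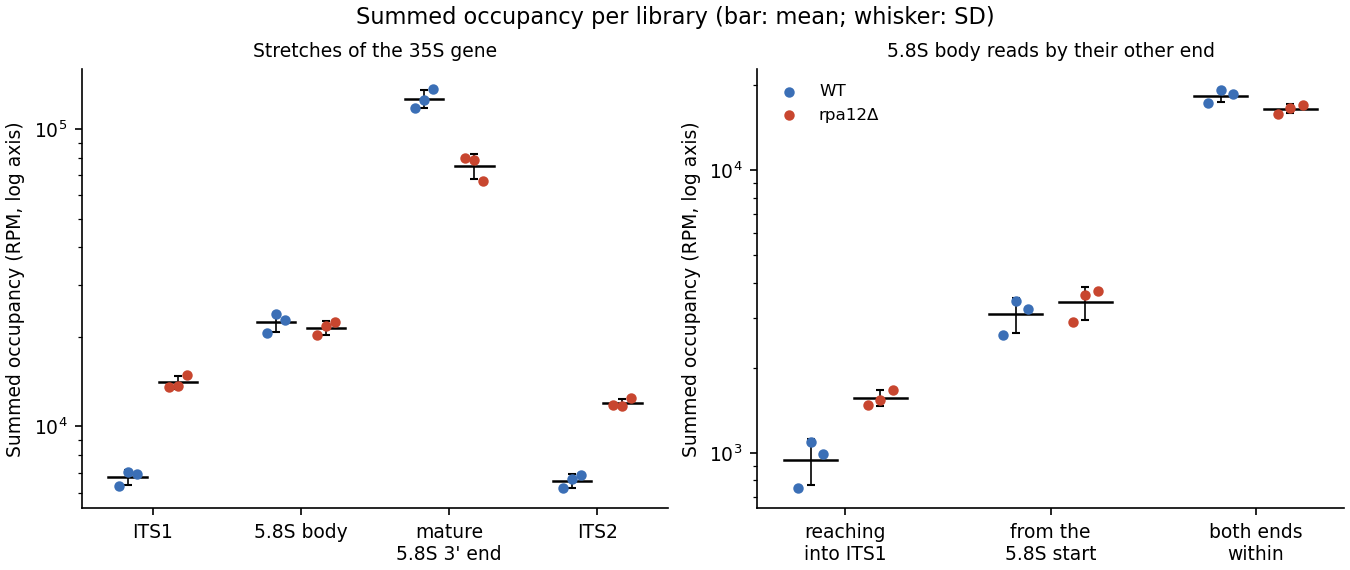
Summed occupancy (RPM, log axis) of each library, with the mean and SD of the 3 libraries per strain. Left, ITS1, the 5.8S body, the mature 5.8S 3′ end and ITS2, and right, reads that end in the 5.8S body, split by where their other end lies. ITS1 and ITS2 are higher in every *rpa12Δ* library, the mature end is lower, and the 5.8S body overlaps.

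The denominator holds the mature rRNA ends, of which the 25S 3′ end was lower too, with 111459 ± 3343 RPM in WT and 70590 ± 3389 in the mutant. The 18S 3′ end overlapped between strains, at 11778.5 ± 3843 RPM in WT, against 13798.5 ± 2683 (limma, log2 difference 0.27, adjusted p = 0.346). With the positions around the mature ends removed from the denominator, the 5.8S body was called lower, at -0.22 (limma, adjusted p = 0.0331), and ITS2 stayed higher at 0.70.

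ITS1, on the other side of 5.8S, rose more than ITS2, from 6746 ± 393 to 14075 ± 739 RPM (limma, log2 difference 1.06, SE 0.08, adjusted p = 3.71e-06). The log2 ratio of ITS2 to ITS1 was -0.03 ± 0.03 in WT, against -0.23 ± 0.03 in the mutant, with no overlap (exact permutation test, p = 0.1). A ratio within 5.8S and ITS2 does not depend on the denominator. The log2 ratio of ITS2 to the 5.8S body was -1.74, -1.84 and -1.73 for the WT libraries and -0.78, -0.89 and -0.85 for the mutant, 0.93 apart (exact permutation test, p = 0.1). The body of 25S, which follows ITS2, had a log2 difference of -0.10 (limma, SE 0.07, adjusted p = 0.25).

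Single positions were tested where mean occupancy reached 10 RPM, which 334 of the 390 did, among them all 11 of the mature end and 180 of ITS2. Of 6357 positions tested across the gene, 37.9% were higher in *rpa12Δ* and 11% lower, with a median log2 difference of 0.25. In ITS2, 73.9% of tested positions were higher and 2 were lower, with a median of 1.12, and 104 rose by more than 1 on the log2 scale. The 10 RPM mean is over all 6 libraries, so positions low in WT could enter through their mutant values. That limits the share, the median and the 104. Without the filter, 158 of 227 ITS2 positions were higher and 2 lower. Of the 180 tested ITS2 positions, 142 were higher and 3 lower without overlap between strains, against 42.1% higher and 14.5% lower without overlap across the gene. In the 5.8S body, 28 positions (19.6%) were higher and 21 (14.7%) lower, with a median of 0.06. Without *rpa12Δ* replicate 3 the rises numbered 18, and without WT replicate 2 or 3 the falls numbered 12 or 11. At the mature end 6 positions were lower and 0 higher, with a median of -0.68.

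**Figure D2:**
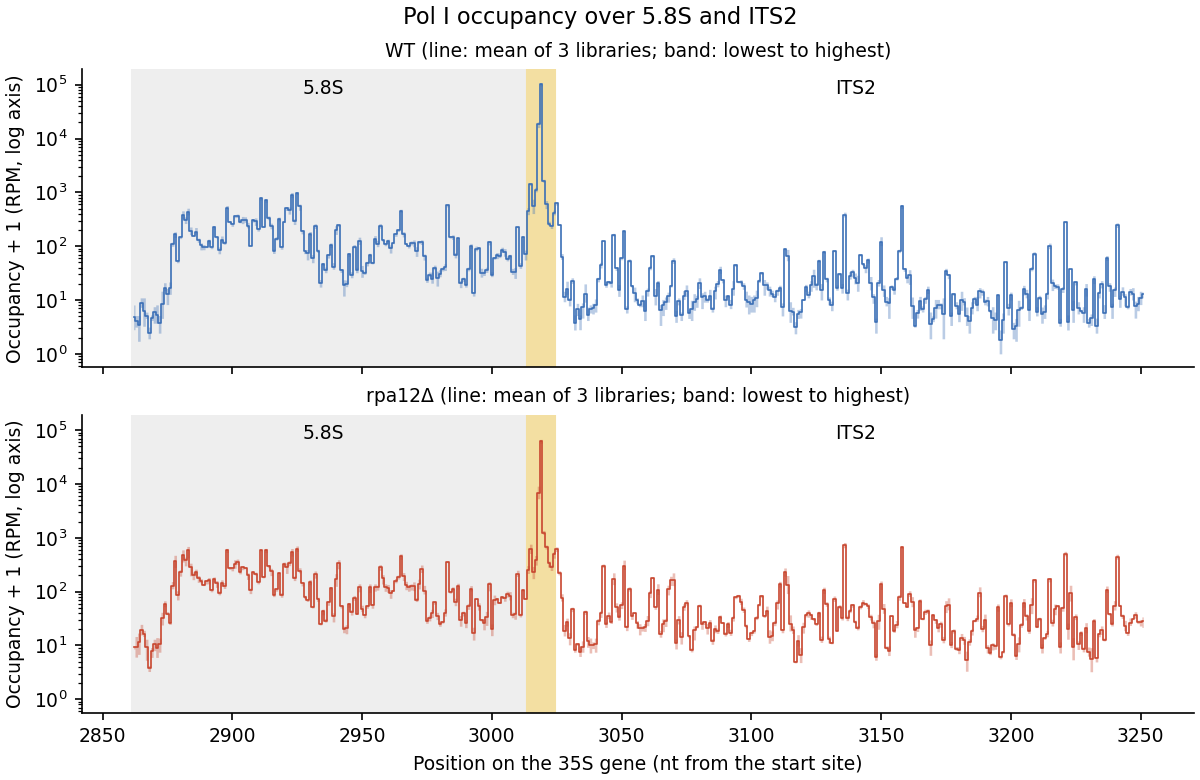
Occupancy + 1 RPM (log axis) at each of the 390 positions, numbered from the 35S start site, for WT (top) and *rpa12Δ* (bottom). Lines are means of 3 libraries, bands span the lowest to the highest library, and 5.8S (grey) and its mature 3′ end (yellow) are shaded. Positions 3019 and 3018 at the mature end stand above all others in both strains, and ITS2 lies below most of 5.8S.

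Occupancy was less concentrated in *rpa12Δ*. Outside the mature end, the 10 highest positions held 22.7, 23.2 and 23.4% of read ends in WT, against 18.3, 18.2 and 17.8% in the mutant (exact permutation test, p = 0.1). Within ITS2 the 10 highest held 44.3% ± 0.205 in WT, against 35.2% ± 0.931. In each WT library 15 positions held 50% of ITS2 read ends, whereas the mutant libraries needed 24, 25 and 21. The median ITS2 position rose from 11.2 ± 0.290 to 26.8 ± 0.193 RPM, while that of the 5.8S body was 98.5 ± 5.59 RPM in WT, against 103 ± 5.27.

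The rank order of positions also differed more in ITS2. Spearman's rho over the 152 positions of the 5.8S body was 0.989 to 0.991 among WT libraries, 0.975 to 0.987 among mutant libraries and 0.946 to 0.969 between strains. Over the 227 positions of ITS2 it was 0.903 to 0.911, 0.96 to 0.967 and 0.743 to 0.833. Positions are not independent replicates and WT had fewer read ends in ITS2, so these coefficients are descriptive.

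The last nucleotide of 5.8S, position 3019 (chromosome XII, 464551), held 95143, 100528 and 108682 RPM in WT, against 65896, 67540 and 57207 in the mutant. The strains did not overlap, but the log2 difference of -0.68 was not called (limma, SE 0.33, adjusted p = 0.0931). This SE depends on a variance trend over all tested positions, so it does not measure the spread of these libraries alone. For the 11 positions summed, fitted without a trend, the SE was 0.09. Position 3019 was called lower with a filter at 50 RPM (adjusted p = 0.02 from limma). That filter changes which positions enter the trend and the adjustment, not the values at 3019. It was also called lower with all reads in the file as denominator (-0.82, limma, adjusted p = 0.00992). Distinct intervals counted once gave -0.46 (limma, adjusted p = 5.02e-08). Every library then held 58 or 59 intervals at 3019, so that value follows from the denominator. In the other alternatives the limma adjusted p ran from 0.0587 to 0.288. Position 3018, 1 nt shorter, held 15994, 18376 and 20437 RPM, against 9116, 6363 and 5326. Here the log2 difference was -1.43 (limma, SE 0.23, adjusted p = 3.46e-05). Relative to position 3019, position 3018 amounted to 16.8, 18.3 and 18.8% in WT, against 13.8, 9.42 and 9.31%, again without overlap.

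The sides of the mature end differed. Ends 1 to 5 nt short of it (3014 to 3018) totalled 21802 ± 2169 RPM in WT, against 8427 ± 2242, which is a log2 difference of -1.40. Ends 1 to 5 nt beyond it (3020 to 3024) totalled 2880, 3369 and 3241 RPM in WT, against 2988, 3284 and 2763, and overlapped. The log2 ratio of longer to shorter ends was 1.33 higher in the mutant (exact permutation test, p = 0.1). Positions 3015, 3016, 3017 and 3018, with 2926 in the 5.8S body, were the 5 largest of 24 called falls at positions that reached 100 RPM. Position 3017 fell furthest, from 1105 ± 116 to 388 ± 78.6 RPM (limma, log2 difference -1.52, SE 0.16, adjusted p = 1.25e-07).

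**Figure D3:**
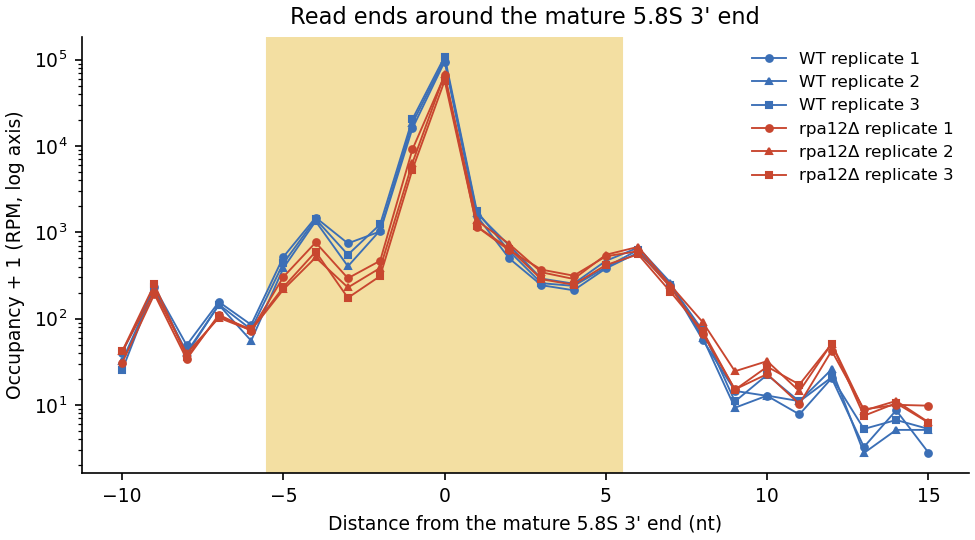
Occupancy + 1 RPM (log axis) from 10 nt before to 15 nt after the last 5.8S nucleotide, with a line for each of the 6 libraries and the mature end shaded. From 5 nt before the end to the end itself the WT lines lie above the *rpa12Δ* lines, as they do 1 nt beyond it. From 2 to 5 nt beyond the end the strains overlap.

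Stretches at the approximate 3′ ends of known 5.8S precursors were summed next, with lengths taken from general knowledge of the pathway. The 6S stretch, 5 to 8 nt past the mature end (3024 to 3027), held 1263, 1451 and 1336 RPM in WT, against 1426, 1560 and 1246, and overlapped (exact permutation test, p = 0.7). Its highest ITS2 position, 6 nt past the end (chromosome XII, 464545), was also the highest of all ITS2 in WT. This position held 623 ± 41.7 RPM, against 612 ± 62.2 in the mutant (limma, log2 difference -0.03, SE 0.14, adjusted p = 0.874).

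The 5.8S+30 stretch, 25 to 35 nt past the end (3044 to 3054), held 592, 602 and 583 RPM, against 786, 801 and 1012 in the mutant, a log2 difference of 0.54 without overlap. The 7S stretch (3152 to 3162) held 734, 801 and 856 RPM, against 1130, 1071 and 1086, a log2 difference of 0.46, again without overlap. Both rose by less than ITS2 as a whole. The log2 ratio to the ITS2 sum fell by 0.81 for the 6S stretch, by 0.33 for the 5.8S+30 stretch and by 0.40 for the 7S stretch (exact permutation test, p = 0.1 for each). The 6S stretch also includes position 3024, which is counted with the mature end and not in the ITS2 sum.

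Most ends in the 7S stretch lay at position 3158 (chromosome XII, 464412), 139 nt past the mature end. It held 499, 556 and 593 RPM in WT, against 702, 648 and 638 in the mutant, which was not called (limma, log2 difference 0.27, SE 0.14, adjusted p = 0.102). The most frequent other end of its reads was 3136 or 3137, with 13.2 to 18.4% of them. Position 3136 (chromosome XII, 464434) was itself the highest ITS2 position of *rpa12Δ*, with 653, 731 and 818 RPM, against 349, 357 and 427 in WT (limma, log2 difference 0.96, SE 0.14, adjusted p = 1.35e-05). Positions 3221 and 3241, also among the highest, rose by 0.82 and 0.85 on the log2 scale. With distinct intervals counted once, which limits each position to the number of read lengths, 3136, 3158, 3221 and 3241 turned to -0.27, -0.34, -0.046 and -0.26.

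Among 31 called rises at positions whose mean reached 100 RPM in either strain, the 5 largest were 3064, 3068, 3069, 3070 and 3111, all in ITS2. Each of them reached 100 RPM only in the mutant, so their low WT values follow in part from this choice. Position 3068 (chromosome XII, 464502) averaged 10.9 ± 2.49 RPM in WT, where its highest library had 13.02, against 114.5, 85.9 and 131 RPM in the mutant. The lowest mutant library was thus far above the highest WT library (limma, log2 difference 3.23, SE 0.20, adjusted p = 1.29e-10). Position 3069 averaged 17.6 ± 1.08 RPM in WT, against 162 ± 31.4, a log2 difference of 3.12. Position 3111 (chromosome XII, 464459) held 16.3, 13.6 and 17.8 RPM in WT, against 154, 120 and 142 (limma, log2 difference 3.05, SE 0.17, adjusted p = 2.42e-11). With distinct intervals, 3070 was at 0.095 and no longer called. The other 4 were still called higher but by less, with log2 differences of 0.87 at 3064, 1.40 at 3068, 0.89 at 3069 and 1.18 at 3111. Depth was not made equal for these counts, and its part was not tested.

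The 2 ITS2 positions called lower were 3126, with 52.9 ± 3.31 RPM in WT, against 38.7 ± 5.17, and 3142, with 67.4 ± 3.22 RPM, against 51.7 ± 4.43. Without WT replicate 1 or *rpa12Δ* replicate 2 the number was 1, and without WT replicate 2, WT replicate 3 or *rpa12Δ* replicate 3 it was 0.

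**Figure D4:**
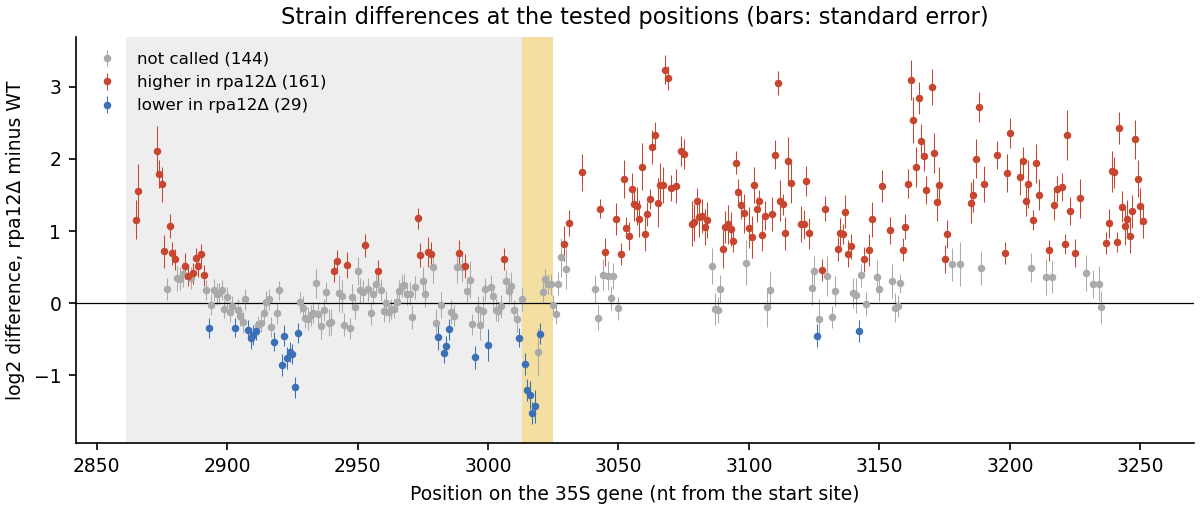
Log2 difference (*rpa12Δ* minus WT) with its standard error at the 334 tested positions, against position from the 35S start site, with 5.8S and its mature end shaded. Most ITS2 positions lie above 0, the start of 5.8S lies above 0, and positions 3014 to 3020 at the mature end and the named positions 2923, 2925 and 2926 lie below.

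Windows of 10 nt gave the course along the stretch. Across the gene 45.2% of 672 windows were higher and 13.5% lower. All 22 windows from position 3032 to the end of ITS2 were higher, by 0.34 to 2.46 on the log2 scale. The largest rise began at the end of the 7S stretch, in the window from 3162 to 3171, with 58.7, 60.4 and 72.6 RPM in WT, against 314, 370 and 380 (limma, log2 difference 2.46, SE 0.18, adjusted p = 3.17e-11). Second was the window from 3062 to 3071, with 214, 187 and 206 RPM, against 819, 735 and 993 (limma, log2 difference 2.06, SE 0.13, adjusted p = 3.61e-12). The smallest rises, of 0.34 and 0.39, were in the windows between 3142 and 3161.

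ITS2 was then divided at the 7S stretch, after the values had been seen. Past it, occupancy was 1604 ± 95.9 RPM in WT, against 3594 ± 145, a log2 difference of 1.16. Before it, occupancy was 4182 ± 194 RPM, against 7299 ± 320, a log2 difference of 0.80. The log2 ratio of the later to the earlier part differed by 0.36 between strains, and by 0.19 without the 6S stretch (exact permutation test, p = 0.1 for both).

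**Figure D5:**
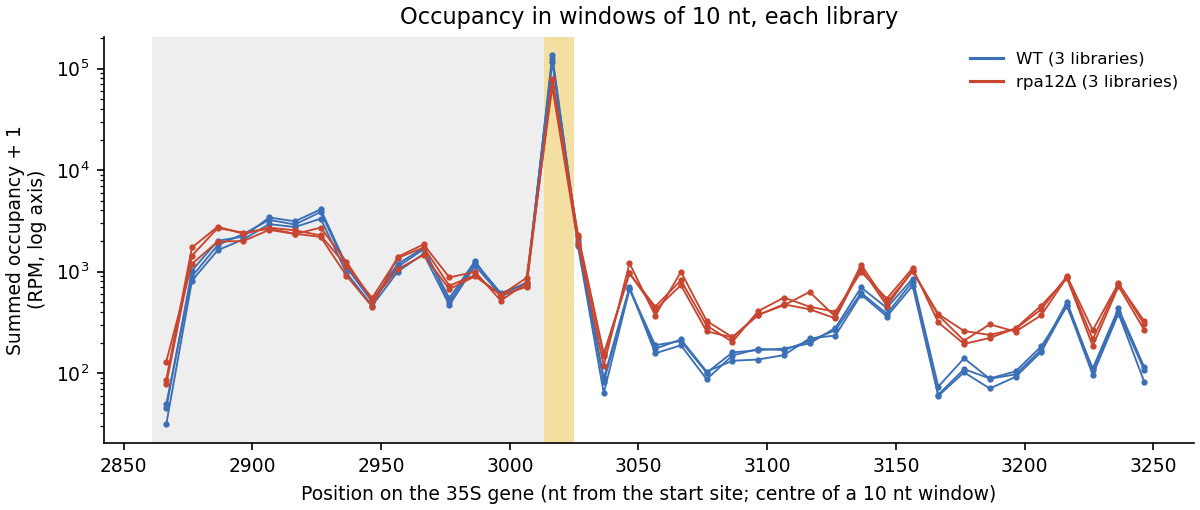
Summed occupancy + 1 RPM in 10 nt windows (log axis), with a line for each library and 5.8S and its mature end shaded. The *rpa12Δ* lines lie above WT from position 3032 on and at the start of 5.8S, and below WT from 2902 to 2931.

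Of the 15 windows up to position 3011 of the 5.8S body, 4 were higher and 2 lower. The rises included the first 3 windows of 5.8S, and the falls were the windows from 2922 to 2931 and from 2982 to 2991. The former held 3319, 4102 and 3861 RPM in WT, against 2706, 2193 and 2272 (limma, log2 difference -0.65, SE 0.13, adjusted p = 0.000137). Single positions followed this course. Of 19 tested from the start of 5.8S to position 2889, 14 were higher and 0 lower, whereas of 41 from 2890 to 2930, 2 were higher and 14 lower. The rises up to 2889 include 2865, 2866 and 2873, whose WT means of 7.80, 5.26 and 7.38 RPM lay below the 10 RPM level. Of the 83 tested in the rest of the 5.8S body, 12 were higher and 7 lower. Across the gene 37.9% of tested positions were higher and 11% lower. The limits of these stretches are not those of the windows, and the split was made on the calls themselves, so it is descriptive. Over the whole of 5.8S and ITS2, 3 windows were lower, and 5 without *rpa12Δ* replicate 1.

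The highest position of the 5.8S body in both strains was 2925 (chromosome XII, 464645), with 911, 1034 and 1026 RPM in WT, against 703, 564 and 560.0. No mutant library reached a WT library (limma, log2 difference -0.71, SE 0.14, adjusted p = 0.000389). Nearby, 2923 fell from 899 ± 97.7 to 533 ± 90.3 RPM, and 2926 fell from 552 ± 77.2 to 245 ± 28.03 RPM, which at -1.16 was the largest fall of the body. Position 2983 fell by 0.69 on the log2 scale. Position 2911 was lower as well (limma, log2 difference -0.38, adjusted p = 0.025), a call lost without WT replicate 2, WT replicate 3 or *rpa12Δ* replicate 3. The other high positions 2913, 2898 and 2883 were not called, at -0.27, 0.18 and 0.40 (limma, adjusted p = 0.116, 0.274 and 0.0591), and 2898 turned to -0.27 with distinct intervals. Position 2883 was called higher without *rpa12Δ* replicate 1 (0.62), without WT replicate 2 (0.51) and with reads of at least 25 nt (0.64), and 2913 was called lower with either other denominator (-0.43 and -0.41) and with distinct intervals (-0.32).

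Each read also has an other end, which the choice of positions did not use. It is taken here as the start of the RNA fragment. Whether reads covered whole fragments was not tested. The shortest read was 20 nt, so a read that ended by position 2879 had to begin at or before 2860, which can be just upstream of the annotated 5.8S start. Ends in 5.8S up to 2879 totalled 362, 462 and 462 RPM in WT, against 770.5, 785 and 961, a log2 difference of 0.97 without overlap. Position 2878 alone held 170 ± 22.7 RPM in WT, against 365 ± 98.1, and reads ending there can begin within a few nt of the 5.8S start. How far into ITS1 these reads reached was not tested. From 2880 to 2889, fragments that began at the 5.8S start, at 2860 to 2863, made up 77.65% ± 0.682 of ends in WT, against 76.5% ± 1.83 (widest 95% Wilson interval of a library ± 1.54 percentage points).

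Reads over the whole 5.8S body were split by their other end, also after the values had been seen. Those that reached past the 5.8S start into ITS1, by beginning before 2860, took 749, 1090 and 994 RPM in WT, against 1479, 1534 and 1675. This was a log2 difference of 0.74 without overlap (exact permutation test, p = 0.1). How far these reached into ITS1 was not tested, so fragments of the longer form of mature 5.8S were not told apart. Those that began at the 5.8S start took 3096 ± 430 RPM, against 3417 ± 455, and overlapped. Those with both ends inside 5.8S, the most abundant class, took 17322, 19266 and 18585 RPM, against 15867, 16591 and 17103, a log2 difference of -0.15 without overlap (exact permutation test, p = 0.1). A fragment of mature 5.8S and one of a longer transcript look alike in this class, and the part of either was not tested.

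In ITS2, reads that began in 5.8S took 1462 ± 78.6 RPM in WT, against 1903 ± 74.1, a log2 difference of 0.38. Reads that lay within ITS2 took 5121 ± 283 RPM, against 10086 ± 473, a log2 difference of 0.98. Both classes were higher in every mutant library. At position 3019, the most frequent other end was 2999 in all 6 libraries, with 10.9 to 13.3% of reads, whose median length ranged from 33 to 34 nt.

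Lastly, occupancy was expressed per 1000000 read ends of the 5.8S and ITS2 positions outside the mature end. The ITS2 rise is part of this denominator, so the differences of highly occupied positions all moved down by nearly the same amount. At 2911 this was from -0.38 to -0.59, and added calls of falls below follow from that shift. On this local scale, 26.6% of the 6357 positions of the gene were higher and 20.5% lower. In ITS2, 127 of 180 were higher and 4 lower, and in the 5.8S body 17 were higher and 42 lower. Positions 2911, 2913, 2923 and 2925 were all lower, at -0.59, -0.48, -0.97 and -0.92 (limma, adjusted p = 0.0011, 0.00317, 0.000138 and 0.000133). Position 3026, also in the 6S stretch, was lower too, at -0.36 (limma, adjusted p = 0.026), while 3158 was at 0.07 (limma, adjusted p = 0.681).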

How the data were processed

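Trimming, alignment and conversion to read intervals were done by the authors, and the submitters' processing notes name bcl2fastq 2.18.0.012, Trim Galore 0.4.1, BWA 0.6 and SAMtools 1.3.1. The genome build is not given in the sources used here, and the coordinates fit R64. Each deposited line is 1 read with start, end and strand, and the deposited score is a mapping quality of 0 to 60. Other deposited values are read positions, and read ends were counted from them with Python 3.11.15 and pandas 2.3.3. The 5′ end of a read on the positive strand was taken as an RNA 3′ end.

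Only reads placed on the complete repeat were used. Log2(occupancy + 1 RPM) was tested with limma 3.58.1 in R 4.3.3, with a variance trend for positions and windows. The threshold was 0.05 after Benjamini-Hochberg adjustment over all tested positions, windows or stretches of the gene. The fits were also run on simulated counts drawn with the same dispersion at all positions, which the data need not share. No block was used. Members, stretches and the naming rule were chosen with earlier results of these data known. Named were the highest position of the mature end, the 5 highest of each strain in the 5.8S body and in ITS2, the 5 largest rises and falls among called positions of at least 100 RPM without overlap, the precursor stretches, and the extreme windows. A genome sequence was not used here, so a planned count of bases at read ends was not run.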

Additional observations from a re-analysis of the deposited data

How the results depend on the processing

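The rise of ITS2 (0.59 to 0.90 on the log2 scale) and the fall of the mature 5.8S 3′ end (-0.92 to -0.41) stayed past the threshold under all 16 alternatives tried for them. For the mature end, -0.41 came from distinct intervals, with 598, 590 and 573 intervals in WT, against 612, 602 and 598 in the mutant. That fall therefore follows from the denominator. The 0.59 for ITS2 also came from distinct intervals, with 3673, 3448 and 3282 in WT, against 7553, 7020 and 6874 in the mutant. These counts grow with depth, which was higher in the mutant and not made equal here. The part of depth in values from distinct intervals was not tested. Of 219 alternative values of the summary results, 181 kept their direction and call or stayed within 1.5 times the count, and of 432 of the named positions, 411 did. The 5.8S body was called lower, at -0.22 without the mature ends in the denominator, -0.21 with all reads in the file as denominator and -0.058 with distinct intervals. A filter at 50 RPM left fewer positions to test, with 17 of 106 higher in the 5.8S body. In ITS2 it left 26 of 38 higher and 0 lower, and on the local scale 36 of 144 higher. All reads as denominator also left fewer positions to test, with 13 of 121 higher in the 5.8S body and 45 of 64 in ITS2. Distinct intervals gave 48 lower in the 5.8S body, 9 lower in ITS2 and 110 lower locally, a log2 difference of the ITS2 to 5.8S ratio of 0.65 and a concentration difference of -2.29 percentage points. With distinct intervals positions 2898, 3136, 3158, 3221 and 3241 reversed, to -0.27, -0.27, -0.34, -0.046 and -0.26. Reads of at least 25 nt gave 1.01 for the ratio, -6.33 for the concentration and 1 ITS2 position lower; the 20 highest positions gave -6.54, and leaving out reads from the 5.8S start, chosen after seeing the data, gave -5.72. Thinning each library to the smallest 35S sum left 0 ITS2 positions lower. Lower windows numbered 5 with no filter, without the mature ends, with all reads as denominator, with reads of at least 25 nt and when thinned, and 8 with distinct intervals; windows of 20 nt gave 11 higher of 19. The methods' *t*-test (Student's, per position), after Benjamini-Hochberg adjustment, called 11 higher and 16 lower positions in the 5.8S body and 117 higher and 1 lower in ITS2; at the methods' unadjusted threshold it called 22 and 24 in the body and 134 and 2 in ITS2. The cause of these changes was otherwise not tested. Leaving out 1 library at a time gave 18 to 40 higher and 11 to 21 lower positions in the 5.8S body, 124 to 135 and 0 to 2 in ITS2, and 2 to 5 lower windows. Same-numbered libraries did not deviate together (r = 0.087, -0.059 and -0.086 for replicates 1 to 3 over 6357 positions). With the replicate number as a block, the ITS2 difference was 0.87 (limma, adjusted p = 0.00022) and the counts stayed within 1.5 times; position 2883 was then called, at 0.40. In WT, a count of 3 equals 1.35 to 2.14 RPM, which limits the lowest ITS2 positions.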

Other observations

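On the opposite strand of the 5.8S and ITS2 positions, WT replicates 1 to 3 had 116, 97 and 76 read ends and *rpa12Δ* replicates 282, 182 and 164. Relative to the read ends of the 35S gene this was 54.6 ± 2.56 RPM for WT, against 50.8 ± 12.9 for the mutant (SD over 3 libraries), and the ranges overlapped.

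Of the 56 positions below the level tested, all 9 of the 5.8S body and 44 of the 47 in ITS2 had the higher mean in *rpa12Δ*, and none averaged above 14.8 RPM in either strain. In ITS2 from position 3178 on, 2.27 to 2.89% of WT read ends, against 2.57 to 2.84% for the mutant, had their other end at 3157 to 3161, near site C2.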
